A study of Mus musculus with 12 samples.

Results

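The genes described here make, sense and move bile acids in the liver of male C57BL/6 mice. They were taken as a list of 10 gene symbols and looked up in the platform's table of probes and symbols. All 10 were on the array, through 11 probes, out of 19084 genes and 21876 named probes. The list covers synthesis by the cytochrome P450 enzymes Cyp7a1, Cyp8b1, Cyp27a1 and Cyp7b1, feedback through the nuclear receptors Nr1h4 and Nr0b2, uptake from blood by Slc10a1 and Slco1a4, and export by Abcb11 and Abcc4.

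Hepatocytes turn cholesterol into bile acids along a classic route that Cyp7a1 opens and an alternative route that Cyp27a1 opens, and Cyp8b1 directs the product towards cholic acid. Bile acids bind the receptor FXR, the product of Nr1h4, which induces Nr0b2; its product SHP represses Cyp7a1 and Cyp8b1, in part by acting on LRH-1, the product of Nr5a2. In a healthy liver Slc10a1 and the Slco1a transporters bring bile acids back from portal blood and Abcb11 pumps them into bile, while Abcc4 exports them back into blood and is known to be induced in cholestasis.

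The study tested PTFC, the pure total flavonoids of Citrus, in a mouse model of fatty liver, with 3 arrays for each of 4 groups. PTFC mice received the high-fat diet (HFD) for 24 weeks and, after the first 6 weeks, 50 mg of the extract per kg per day into the stomach for 18 weeks. HFD24 mice received the HFD for 24 weeks and HFD16 mice for 16 weeks, both with saline in place of the extract. ND mice, the controls, received a normal diet for 24 weeks and saline. The HFD itself contained 0.25% bile salt and 2% cholesterol, besides 10% lard and 5% egg yolk powder, so every comparison with ND includes a dietary load of both the substrate and the product of the pathway. All groups were fasted for 12 h before collection. HFD16 mice were 23 to 25 weeks old, PTFC and HFD24 mice and the first ND replicate 31 to 33 weeks, and the other ND replicates 30 to 32 weeks. The study kept 24 mice, 6 per group. The labels number replicates 1 to 3 and give each sample its own code, without saying that each was a separate animal. The p-values thus rest on the spread among these samples alone, and how much of that spread is technical is not known.

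Values below are normalized intensities, that is, deposited intensities after quantile normalization over the 12 arrays, and differences are on the log2(intensity + 1) scale. Levels of different genes are not compared, since each probe has its own brightness. Hepatocyte transcripts were abundant on every array: Alb, encoding albumin, lay between 311666 and 464956, and 10 of 11 measured hepatocyte markers did not pass the test between HFD24 and ND. The arrays also differed technically. Deposited values were whole multiples of a step that belonged to each array, and this intensity step was at most 1.12 on the PTFC, HFD24 and HFD16 arrays, against 1.46, 1.23 and 1.24 on the ND arrays, so step and diet go together in every comparison with ND.

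On the HFD for 24 weeks, the exporter Abcc4 was 2.42-fold higher and the feedback repressor Nr0b2 3.11-fold higher than in ND, while the oxysterol hydroxylase Cyp7b1 was 2.02-fold lower and the uptake transporter Slco1a4 3.21-fold lower. By limma with Benjamini-Hochberg adjustment over all genes, 2 of the 10 genes were higher and 2 lower, where 9.97% of all genes were higher and 8.28% lower. In 5 of the 10 the HFD24 and ND arrays did not overlap, as was so for 33.6% of all genes. The median size of the difference was 0.68 over the 10 genes and 0.31 over all genes. With PTFC, only Slco1a4 among the 10 passed the test against HFD24, 2.73-fold higher, where 2.96% of all genes were higher and 3.04% lower. In that comparison 2 of the 10 genes had arrays that did not overlap, against 31.1% of all genes, and the median size of the difference was 0.28, against 0.26 over all genes. The call counts over all genes rested on single arrays: the 1145 calls for PTFC with HFD24 became 11 without the third PTFC array, 39 without the first HFD24 array and 1973 without the third ND array, and the 3483 calls for HFD24 with ND became 1734 without the first ND array and 4939 without the third.

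The 16-week diet, compared with ND, gave 1 higher gene, Nr0b2, and 3 lower genes, Cyp8b1, Cyp7b1 and Slco1a4, where 10% of all genes were higher and 8.11% lower; in 6 of the 10 the HFD16 and ND arrays did not overlap, against 35.8% of all genes. PTFC compared with ND gave 1 higher gene, Abcc4, and 1 lower gene, Cyp7b1, where 1.04% of all genes were higher and 1.29% lower; 3 of the 10, against 22.1% of all genes, had arrays that did not overlap. HFD24 compared with HFD16 gave none by limma with Benjamini-Hochberg adjustment, where 0.0367% of all genes passed; at an unadjusted p under 0.05 there was 1, Cyp8b1, and 9.78% of all genes, and 2 of the 10 had arrays that did not overlap, against 16.4% of all genes. Age differs wherever HFD16 is compared and cannot be told apart from the diet or its length there. The 3 comparisons with ND share the same ND arrays, and HFD24 arrays stand on both sides of the diet and the extract comparisons, so their values are given side by side and not as separate evidence. An F test over the 4 groups passed 5 of the 10 genes, Cyp8b1, Cyp7b1, Nr0b2, Slco1a4 and Abcc4, where 21.4% of all genes passed. In bulk liver, fewer hepatocytes and less RNA per hepatocyte cannot be told apart.

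**Figure D1:**
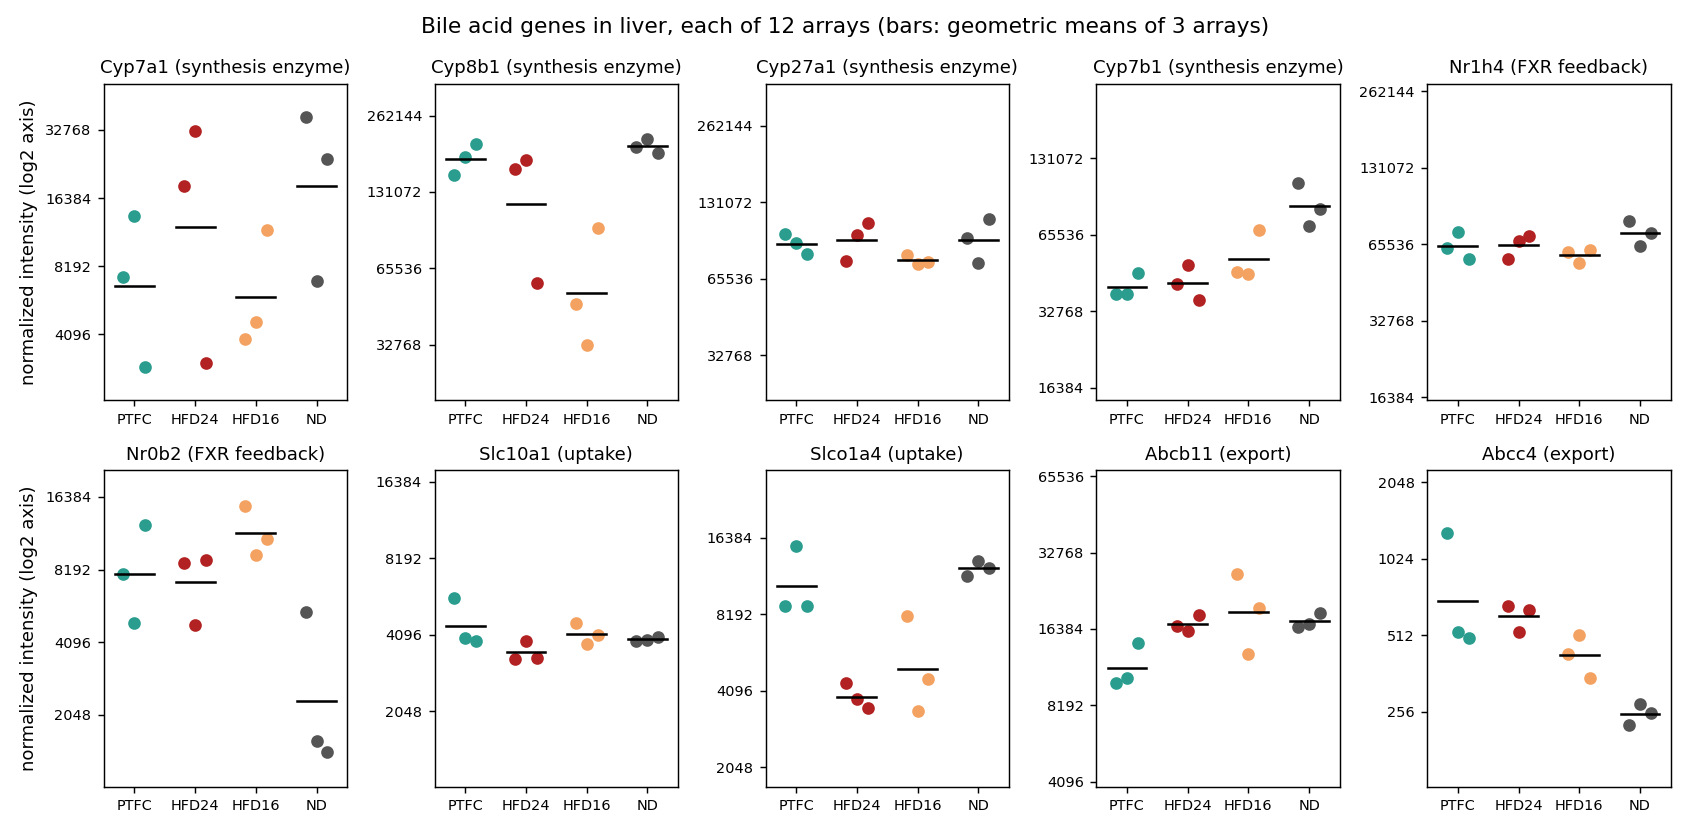
Normalized intensity of each of the 10 genes on a log2 axis, one panel per gene, with 1 point per array for PTFC, HFD24, HFD16 and ND and a bar at the geometric mean of 3 arrays. Cyp7b1 and Slco1a4 are lower and Abcc4 is higher on all HFD24 arrays than on all ND arrays, while Cyp7a1 spreads widely within each group.

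With the intensity step as a covariate, none of the 10 differences from ND that had passed was still past the test (limma adjusted p 0.0564 to 0.716). They kept 27.5% to 143% of their size, with a median of 75.1%, and the same sign. Over all genes the covariate left 382 calls for HFD24 with ND, against 3483 without it, 101 for HFD16 with ND, against 3462, 25 for PTFC with ND, against 445, and 1699 by the F test, against 4088. Of the genes outside the 10 that are named below, Cyp2b10 (adjusted p = 0.0704), Gstm3 (0.081), Nr1i2 (0.0929), Abcd3 (0.143), Ephx1 (0.183), Nr5a2 (0.184) and Gpbar1 (0.223) lost their calls for HFD24 with ND. The call of Fgf15 in that comparison was not examined with this covariate. The step has no overlap between ND and the other groups, so it and the diet cannot be told apart. The extract comparison, in which no ND array stands on either side, still had Slco1a4 past the test with this covariate.

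Cell type markers also moved with the groups. All 12 macrophage markers were higher in HFD24 than in ND, and their summed level was 61599.6 to 82128 in PTFC, 108642 to 175996 in HFD24, 37137 to 151831 in HFD16 and 15227 to 38433 in ND. Of 12 macrophage markers, 1 was lower in PTFC than in HFD24. The summed level of the 11 hepatocyte markers was 2680240 to 2827900 in PTFC, 2579090 to 2734950 in HFD24, 2572180 to 2732310 in HFD16 and 2714430 to 2810000 in ND. Of 12 pericentral hepatocyte markers, 1 was lower in HFD24 than in ND and none passed between PTFC and HFD24. Their sums were 1369070 to 1414890 in PTFC, 1014150 to 1389020 in HFD24, 1002400 to 1294720 in HFD16 and 1220290 to 1262800 in ND. Of 7 periportal hepatocyte markers, 2 were lower in HFD24 than in ND and 2 higher in PTFC than in HFD24. Their sums were 806519 to 901918 in PTFC, 751219 to 849314 in HFD24, 793247 to 811622 in HFD16 and 849037 to 880627 in ND. Of 7 cholangiocyte markers, 3 were lower in HFD24 than in ND, with sums of 3493 to 4189.8 in PTFC, 2963 to 3550.5 in HFD24, 3269 to 3925 in HFD16 and 4331 to 4502 in ND. Of 10 markers of stellate cells and matrix, 7 were higher and 1 lower in HFD24 than in ND, and 4 were lower in PTFC than in HFD24; their sums were 20073 to 32113 in PTFC, 20921 to 35599 in HFD24, 19270 to 33622 in HFD16 and 11759 to 14062 in ND. Of 9 endothelial markers, 6 were higher in HFD24 than in ND, with sums of 51879 to 58078 in PTFC, 50626 to 66911 in HFD24, 42250 to 54244 in HFD16 and 30254 to 41218 in ND. Of 5 neutrophil markers, 3 were higher in HFD24 than in ND and 1 was lower in PTFC than in HFD24, with sums of 1630.5 to 2093 in PTFC, 3341 to 4986 in HFD24, 1381 to 3152 in HFD16 and 1095 to 1561 in ND. Each sum adds intensities of different probes, so it mostly follows the brightest ones and can hide changes of dim markers. Reln, a stellate cell marker, alone lay at 15517.5 to 25839 in PTFC and 12767 to 26116 in HFD24. The dimmer matrix marker Col1a2 lay at 72.6 to 170 in PTFC and 556 to 813 in HFD24. No marker of the macrophage, general hepatocyte, cholangiocyte, stellate cell and matrix, endothelial and neutrophil lists was at 0. The part of cell composition in the differences of the 10 genes was not tested.

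Among the synthesis enzymes, Cyp7b1, which hydroxylates oxysterols on the alternative route, was lower in all 3 groups on the HFD. Its probe read 38306, 38465 and 46322 on the PTFC arrays, 41910.1, 49665 and 36210.5 on the HFD24 arrays, 46961, 45841 and 68289 on the HFD16 arrays and 104405, 71224 and 83013 on the ND arrays. Every array of the HFD groups lay below every ND array. Compared with ND, the difference was -1.06 ± 0.19 in PTFC (SE, n = 3 per group, limma adjusted p = 0.015), -1.01 ± 0.19 in HFD24 (adjusted p = 0.00327) and -0.69 ± 0.19 in HFD16 (adjusted p = 0.0244). PTFC and HFD24 arrays overlapped, and their difference was -0.05, with a 95% interval from 0.730-fold to 1.28-fold. The PTFC call was lost without the second PTFC array (adjusted p = 0.054), the third PTFC array (0.0511) or the first ND array (0.0844). The HFD16 call was lost without the first HFD16 array (0.0681), the second HFD16 array (0.0835) or the first ND array (0.113), and also with median centring (0.0984) and with only the arrays of HFD16 and ND in the model (0.0559).

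Cyp8b1, the sterol hydroxylase that is needed for cholic acid, was lower than in ND after 16 weeks of the diet. It read 153093, 179699 and 201942 on the PTFC arrays, 161916, 175177 and 57553 on the HFD24 arrays, 47242, 32660 and 94341 on the HFD16 arrays and 197707, 212695 and 185960 on the ND arrays. All HFD16 arrays lay below all ND arrays, and HFD24 arrays lay below ND as well, most of all the third, at 57553. The difference from ND was -1.92 ± 0.39 in HFD16, 3.77-fold lower (limma adjusted p = 0.00741), -0.75 ± 0.39 in HFD24 (adjusted p = 0.202) and -0.16 in PTFC (adjusted p = 0.902). HFD24 exceeded HFD16 by 1.16 ± 0.39, which did not pass (unadjusted p = 0.0109, limma adjusted p = 0.367). PTFC exceeded HFD24 by 0.59 ± 0.39 with overlapping arrays (limma adjusted p = 0.386), and the interval of that ratio ran from 0.836-fold to 2.70-fold; without the third HFD24 array the difference was 0.073.

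For Cyp8b1 the RefSeq promoter table (GRCm38.p6) gave the 250 bases before the gene's start, chr9:121916306-121916555 on the minus strand, shown because SHP is known to act on this gene through LRH-1. The capitals mark a match to CAAGGNCA, a motif of LRH-1, which starts 60 bases before the start of the gene.
Cyp8b1 upstream region: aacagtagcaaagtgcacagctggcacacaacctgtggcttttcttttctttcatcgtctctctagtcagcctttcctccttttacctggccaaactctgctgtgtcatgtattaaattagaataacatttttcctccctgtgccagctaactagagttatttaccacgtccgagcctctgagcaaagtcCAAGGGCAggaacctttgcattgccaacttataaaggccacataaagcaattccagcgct

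Cyp27a1, the mitochondrial sterol hydroxylase that opens the alternative route, varied little. It read 97937, 90998 and 82100 on the PTFC arrays, 76798, 97272 and 108909 on the HFD24 arrays, 81568, 74663 and 76108 on the HFD16 arrays and 94953, 75608 and 112194 on the ND arrays. All PTFC arrays lay above all HFD16 arrays, the other pairs of groups overlapped, and no comparison passed the test: the difference from ND was -0.05 in PTFC (limma adjusted p = 0.935), 0.00 in HFD24 (0.987) and -0.27 in HFD16 (0.257). The 95% interval of the ratio of HFD24 to ND was 0.792-fold to 1.27-fold. PTFC differed from HFD24 by -0.05 (adjusted p = 0.881), with an interval from 0.762-fold to 1.22-fold.

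Cyp7a1, the rate-limiting enzyme of the classic route, could not be resolved at 3 arrays per group. It read 7362, 13724 and 2938 on the PTFC arrays, 18489, 32345 and 3048 on the HFD24 arrays, 3890.3, 4656 and 11903 on the HFD16 arrays and 37494, 7078 and 24290.5 on the ND arrays. Each group spanned a wide range, with the third PTFC array and the third HFD24 array lowest of all, and the groups overlapped. The SD of the log2 values within a group was 1.12 in PTFC, 1.78 in HFD24, 0.87 in HFD16 and 1.25 in ND. The difference of HFD24 from ND was -0.61 ± 0.83 (limma adjusted p = 0.654), with an interval from 0.189-fold to 2.28-fold, and that of PTFC from HFD24 was -0.87 ± 0.83 (adjusted p = 0.565), with an interval from 0.157-fold to 1.90-fold. HFD16 differed from ND by -1.63 ± 0.83 (adjusted p = 0.187) and PTFC from ND by -1.48 ± 0.83 (adjusted p = 0.405). The F test over the 4 groups gave an adjusted p of 0.349. No difference of Cyp7a1 was detectable with this spread, and the intervals allow both a fall and a rise.

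The arrays that were low for Cyp7a1 were only partly those low for Cyp8b1. The third HFD24 array had the lowest level of both enzymes in its group, but the third PTFC array had the lowest Cyp7a1 and the highest Cyp8b1 of its group, at 201942. Over the 12 arrays and 19083 other genes, the level pattern most like that of Cyp7a1, by root mean square difference of log2 values after centring each gene, was that of Mt1 (0.61), followed by Aldh1b1 (0.86) and Slc34a2 (0.89). The root mean square of Cyp7a1 itself about its mean was 1.25.

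In the feedback arm, the receptor gene Nr1h4 was nearly level and its target Nr0b2 was higher on the diet. Nr1h4 read 63347, 73317 and 57261 on the PTFC arrays, 57261, 67556 and 70434 on the HFD24 arrays, 61267, 55390.3 and 62087 on the HFD16 arrays and 80971, 64615 and 72648 on the ND arrays. All HFD16 arrays lay below the ND arrays by a small margin, and the other groups overlapped ND. The difference from ND was -0.17 in PTFC (limma adjusted p = 0.591), -0.16 in HFD24 (0.436) and -0.28 in HFD16 (0.155), and that of PTFC from HFD24 was -0.01 (0.969), with an interval of the ratio from 0.812-fold to 1.21-fold.

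Nr0b2, encoding SHP, read 7882, 4919 and 12567 on the PTFC arrays, 8736, 4819 and 9012 on the HFD24 arrays, 15067, 9398 and 10933 on the HFD16 arrays and 5464, 1596 and 1442 on the ND arrays. Every HFD16 array exceeded every ND array. The HFD24 and PTFC arrays were above the second ND array and the third, but the first ND array, at 5464, exceeded the second array of both groups. Compared with ND, the difference was 1.76 ± 0.46 in PTFC (limma adjusted p = 0.0656), 1.64 ± 0.46 in HFD24 (adjusted p = 0.0275) and 2.31 ± 0.46 in HFD16 (4.97-fold, adjusted p = 0.00674). All HFD24 arrays lay below the HFD16 arrays, with a difference of -0.68 ± 0.46 (adjusted p = 0.64). PTFC and HFD24 differed by 0.12 ± 0.46 (adjusted p = 0.907), with an interval of the ratio from 0.543-fold to 2.18-fold. The HFD24 call rested on few arrays: the adjusted p was 0.0975 with the first HFD24 array left out, 0.083 with the third, 0.112 with the second ND array left out and 0.0775 with the third. The PTFC difference passed when the dimmest 25% of genes were left out (0.048) or the first ND array was (0.0216).

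The first ND array, which had the highest Nr0b2 of the ND group, also had the highest Cyp7a1 and Cyp7b1 of that group. The patterns most like that of Nr0b2 over the 12 arrays were those of Tle3 (root mean square difference 0.55), Sdf2l1 (0.58) and Map2k6 (0.58), against 1.04 for Nr0b2 about its own mean. Their differences of HFD24 from ND were 1.36, 1.23 and 1.29 in that order, given as a description, since the genes were chosen for this pattern.

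The 250 bases before the start of Nr0b2, chr4:133553126-133553375 on the plus strand (RefSeq, GRCm38.p6), are shown because LRH-1 and FXR are both known to act on this promoter. The capitals mark a match to the same motif that starts 201 bases before the start of the gene.
Nr0b2 upstream region: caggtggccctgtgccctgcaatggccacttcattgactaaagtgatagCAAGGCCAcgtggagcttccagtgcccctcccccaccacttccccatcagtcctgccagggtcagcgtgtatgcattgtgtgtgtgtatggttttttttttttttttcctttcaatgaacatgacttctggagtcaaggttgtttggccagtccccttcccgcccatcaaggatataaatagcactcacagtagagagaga

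**Figure D2:**
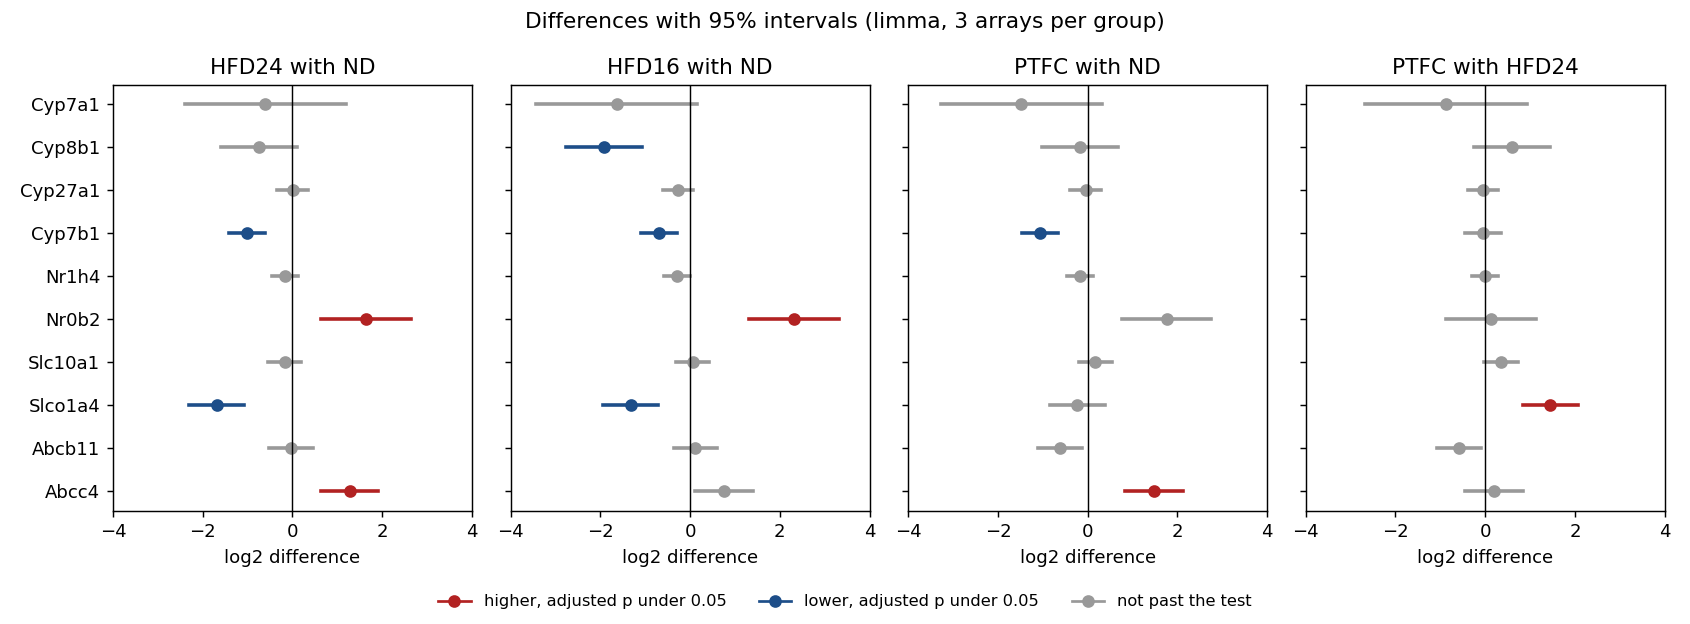
Log2 differences of the 10 genes with 95% intervals, one panel each for HFD24, HFD16 and PTFC compared with ND and for PTFC compared with HFD24, from limma on 3 arrays per group. Points right of 0 are higher in the group named first; Slco1a4 lies at -1.68 in HFD24 with ND and at 1.45 in PTFC with HFD24, and the interval of Cyp7a1 spans 0 in every panel.

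Uptake gave the one difference between PTFC and HFD24 that passed. Slco1a4, which carries bile acids and other organic anions across the blood-facing membrane, read 8786, 15229 and 8827 on the PTFC arrays, 4387, 3797 and 3482 on the HFD24 arrays, 8028, 3389 and 4559 on the HFD16 arrays and 11619, 13266 and 12451 on the ND arrays. All PTFC arrays were above all HFD24 arrays. All HFD24 and HFD16 arrays were below all ND arrays, while PTFC arrays lay on both sides of the ND range. PTFC exceeded HFD24 by 1.45 ± 0.28 (2.73-fold, 95% interval 1.79 to 4.17, limma adjusted p = 0.0209). HFD24 differed from ND by -1.68 ± 0.28 (3.21-fold lower, adjusted p = 0.00206) and HFD16 from ND by -1.32 ± 0.28 (2.49-fold lower, adjusted p = 0.009). PTFC and ND differed by -0.23 ± 0.28 (adjusted p = 0.766), with an interval of the ratio from 0.557-fold to 1.30-fold.

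The call for PTFC with HFD24 was lost with median centring (difference 1.14, adjusted p = 0.0509) and without the second PTFC array (0.054), the third PTFC array (0.0934), the first HFD24 array (0.064) or the second HFD24 array (0.0529). The difference stayed between 1.14 and 1.58 over all 22 other settings. Slco1a4 has close relatives in the Slco1a family, and probe sequences were not used here, so whether the probe also binds their transcripts was not tested.

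Slc10a1, encoding NTCP, the main sodium-dependent uptake transporter, had 2 probes. The brighter one read 5689, 3989 and 3879 on the PTFC arrays, 3293, 3883 and 3331 on the HFD24 arrays, 4542, 3759 and 4082 on the HFD16 arrays and 3886, 3909 and 4026 on the ND arrays. The second read 2289, 2288 and 2079.6 on the PTFC arrays, 2429, 1865 and 2061 on the HFD24 arrays, 2438, 3055 and 3099 on the HFD16 arrays and 1462, 2579 and 1614 on the ND arrays. On the brighter probe all HFD24 arrays lay just below the ND arrays, with a difference of -0.17 (limma adjusted p = 0.517), and PTFC exceeded HFD24 by 0.35 ± 0.17 with overlapping arrays (adjusted p = 0.235). The second probe gave 0.21 for HFD24 with ND and 0.07 for PTFC with HFD24. For HFD16 with ND it gave 0.64 ± 0.21 (limma adjusted p = 0.0557 over all 26423 probes). There the brighter probe gave 0.06 (limma adjusted p = 0.839 over the same probes). The probes thus disagreed in direction for HFD24 with ND, and neither passed the test in any comparison.

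Of the exporters, Abcc4, encoding MRP4 on the blood-facing membrane, read 1297, 529 and 501 on the PTFC arrays, 669, 525 and 644 on the HFD24 arrays, 433, 513 and 348 on the HFD16 arrays and 228, 275 and 253 on the ND arrays. All 9 arrays of the HFD groups were above all ND arrays, and the first PTFC array was the highest of all. The difference from ND was 1.48 ± 0.30 in PTFC (2.78-fold, limma adjusted p = 0.0254), 1.27 ± 0.30 in HFD24 (2.42-fold, adjusted p = 0.0109) and 0.76 ± 0.30 in HFD16 (adjusted p = 0.0918). HFD24 arrays all exceeded HFD16 arrays, by 0.51 ± 0.30 (adjusted p = 0.588). PTFC and HFD24 differed by 0.20 ± 0.30 (adjusted p = 0.727), and by -0.24 without the first PTFC array. The PTFC call against ND was lost without the first ND array (adjusted p = 0.117) or the second (0.0525), and the HFD16 difference passed with only the arrays of HFD16 and ND in the model (0.0372) or without the first PTFC array (0.0161).

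Abcb11, encoding BSEP, the canalicular bile salt export pump, read 10002, 10469.5 and 14416 on the PTFC arrays, 16868, 16144 and 18574 on the HFD24 arrays, 27017, 13059.8 and 19748 on the HFD16 arrays and 16727, 17115 and 18877 on the ND arrays. All PTFC arrays were below all HFD24 arrays and all ND arrays, and HFD24 overlapped ND. PTFC differed from HFD24 by -0.58 ± 0.23 and from ND by -0.61 ± 0.23, neither past the test (unadjusted p = 0.023 and 0.0176, limma adjusted p = 0.133 and 0.174). The ratio of PTFC to HFD24 had an interval from 0.477-fold to 0.937-fold. HFD24 differed from ND by -0.03 (adjusted p = 0.941) and HFD16 from ND by 0.12 (adjusted p = 0.745), and the HFD16 arrays spread from 13059.8 to 27017.

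Abcb11 is a textbook target of FXR, which binds as a pair with RXR to inverted repeats of AGGTCA, so its upstream region is shown. The 250 bases, chr2:69342617-69342866 on the minus strand (RefSeq, GRCm38.p6), hold 2 stretches in capitals that resemble the inverted repeat AGGTCANTGACCT, one starting at base -94 with 2 letters differing and one at base -63 with 1 letter differing. The second stretch includes an exact copy of AGGTCA on the other strand, TGACCT, at base -56.
Abcb11 upstream region: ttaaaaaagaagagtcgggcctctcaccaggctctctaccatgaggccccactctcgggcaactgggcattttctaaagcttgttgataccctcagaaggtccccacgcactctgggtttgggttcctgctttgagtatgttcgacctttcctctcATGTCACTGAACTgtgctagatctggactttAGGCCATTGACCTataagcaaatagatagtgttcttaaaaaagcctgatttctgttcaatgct

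Promoters were searched over 300 bases, 250 before and 50 after the start, for AGGTCA, CAAGGNCA and AGGTCANTGACCT with up to 2 letters differing, on both strands, and the inverted repeat contains AGGTCA. RefSeq entries were matched for 8 of the 10 genes, with 10 promoters, since some genes have more than 1. AGGTCA was found in 3 of these 10 promoters, of Nr1h4, Slc10a1 (promoter number 2) and Abcb11, and in 16.3% of all 32851 promoters. CAAGGNCA was found in 2 of the 10, of Cyp8b1 and Nr0b2, and in 6.71% of all. The inverted repeat was found in 1 of the 10, of Abcb11, and in 1.14% of all. A match describes letters only and was not tied to the expression values.

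The other genes of the pathway are given as lists, to be read beside the shares over all genes. For HFD24 with ND, 9.97% of all genes were higher and 8.28% lower. For PTFC with HFD24, 2.96% were higher and 3.04% lower, and for HFD16 with ND, 10% and 8.11%. The list counts were not tested against these shares. Of 18 other genes of synthesis and conjugation, 1 was higher and 1 lower in HFD24 than in ND, with a median difference of 0.05, where the median over all genes was -0.06. Ch25h, which makes 25-hydroxycholesterol and is known from macrophages, was higher by 2.45 ± 0.32 (limma adjusted p = 0.000646), and lay at 49.7 to 105 in PTFC, 236 to 259 in HFD24, 72 to 168 in HFD16 and 37.3 to 60.9 in ND. It was lower in PTFC than in HFD24, at -1.86 ± 0.32 (adjusted p = 0.0173), the only gene of this list to pass there, a call lost without the third PTFC array (0.094) or the first HFD24 array (0.059). Ch25h lay among the dimmest 25% of genes, where fold changes are least certain. Abcd3, a peroxisomal transporter of bile acid precursors, was lower in HFD24 than in ND, at -0.57 ± 0.14 (adjusted p = 0.0144), a call lost with median centring (0.148). In HFD16, 3 genes of the list were higher and 3 lower than in ND.

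Of 15 other transporters of bile acids and biliary lipids, 3 were higher and none lower in HFD24 than in ND (median 0.32), and none passed between PTFC and HFD24 (median -0.16). Abcg5 and Abcg8, which together form the canalicular cholesterol pump, were higher in HFD24 by 0.98 ± 0.21 and 0.87 ± 0.19 (limma adjusted p = 0.00743 and 0.00828). Abcg5 lay at 27239 to 53455 in PTFC, 46170 to 57123 in HFD24, 57208 to 74246 in HFD16 and 21401 to 27963 in ND. Abcg8 lay at 5544 to 9149 in PTFC, 10453 to 12497 in HFD24, 11755 to 14578 in HFD16 and 5473 to 6933 in ND. Neither gene's HFD24 or HFD16 arrays overlapped ND. The third was Ephx1, epoxide hydrolase (0.70 ± 0.20, adjusted p = 0.0304), which lost its call without the second HFD24 array (0.0657), the third HFD24 array (0.11) or the first ND array (0.122). In HFD16, 5 genes of the list were higher than in ND and none lower.

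Of 20 other regulators, 5 were lower and none higher in HFD24 than in ND (median -0.28). Ppargc1a, the coactivator PGC-1α, was lower, at -1.40 ± 0.25 (limma adjusted p = 0.00255), and lay at 503 to 706 in PTFC, 419 to 679 in HFD24, 342 to 462 in HFD16 and 1121 to 2082 in ND. Nr1i2, encoding the xenobiotic receptor PXR, was lower, at -0.85 ± 0.18 (adjusted p = 0.00623), at 3959.7 to 4626 in PTFC, 2373 to 3773 in HFD24, 3197 to 3931 in HFD16 and 4967 to 5704 in ND. Nr5a2, encoding LRH-1, was lower, at -0.69 ± 0.19 (adjusted p = 0.0264), a call lost without the third HFD24 array (0.0968), the first ND array (0.089) or the second ND array (0.109), with median centring (0.136) and with only the arrays of HFD24 and ND in the model (0.0711). Gpbar1, the membrane bile acid receptor TGR5, was lower, at -0.70 ± 0.20 (adjusted p = 0.0307), lost without the second HFD24 array (0.0667), the third HFD24 array (0.105) or the second ND array (0.134) and with only the arrays of HFD24 and ND in the model (0.0522). The other was Fgf15, which is made mainly in the ileum (-0.58 ± 0.19, limma adjusted p = 0.0464). It is named here as the last of the 5 and after its values were seen, and the other settings were not examined for this difference. Fgf15 lay at 528 to 605 in PTFC, 298 to 372 in HFD24, 388 to 452 in HFD16 and 388 to 650 in ND. Of 5 ileum markers listed as a check of dissection, 2, Fgf15 among them, were lower in HFD24 than in ND. Only 1, Fgf15, was higher in PTFC than in HFD24. Whether ileum tissue was in the samples was not tested.

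Between PTFC and HFD24, 2 of the 20 regulators were higher and none lower (median 0.13), namely Fgf15 by 0.75 ± 0.19 (limma adjusted p = 0.0376) and Gpbar1 by 0.77 ± 0.20 (adjusted p = 0.0441). Both calls were lost without any single PTFC or HFD24 array and without the third HFD16 array, and that of Gpbar1 also without the first ND array. The highest adjusted p without 1 array was 0.165 for Fgf15 and 0.124 for Gpbar1, each without the third PTFC array. Of 10 other liver targets of FXR, only Apoc2, an activator of lipoprotein lipase, passed between HFD24 and ND (0.47 ± 0.13, adjusted p = 0.0242; list median -0.16), and none passed between PTFC and HFD24 (median 0.15). The Apoc2 call was lost without the second HFD24 array (0.0791), the first ND array (0.0505) or the second ND array (0.101), with median centring (0.0642), on the authors' scale (0.0785) and with no trend in the prior variance (0.0559).

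**Figure D3:**
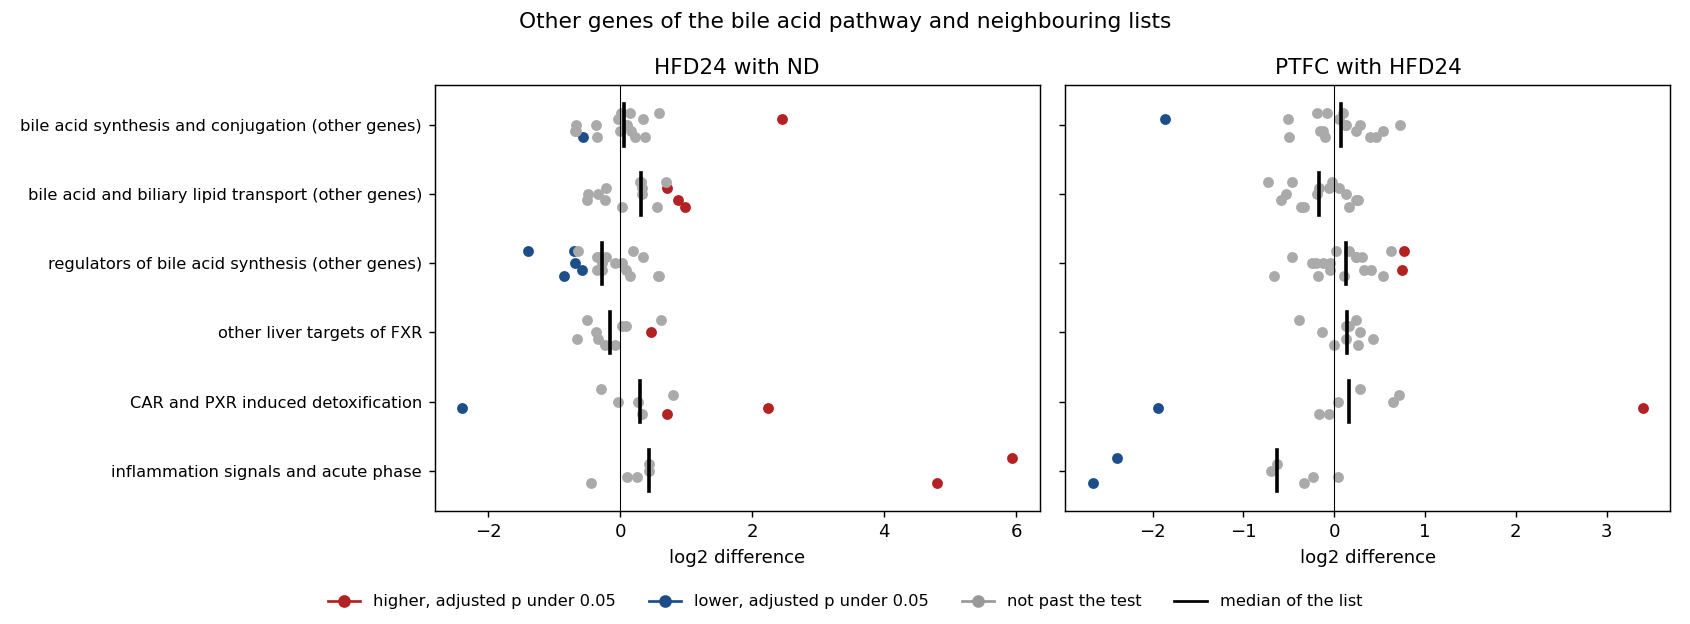
Log2 differences of the measured genes of 6 lists, 1 point per gene, for HFD24 with ND and for PTFC with HFD24, with a bar at the list median. Red and blue points passed the test as higher and lower; Cyp2b10 lies at -2.40 on the left and at 3.40 on the right, and the vertical offsets within a list carry no value.

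Among 8 genes of detoxification that the receptors CAR and PXR are known to induce, Cyp2b10, the standard CAR target, was, like Slco1a4, higher in PTFC than in HFD24 and lower in HFD24 than in ND. It lay at 1467 to 6114 in PTFC, 157 to 538 in HFD24, 373 to 748 in HFD16 and 928 to 2402 in ND. All PTFC arrays exceeded all HFD24 arrays, by 3.40 ± 0.53 (limma adjusted p = 0.013), and HFD24 was lower than ND, at -2.40 ± 0.53 (adjusted p = 0.00855). Cyp2b10 has close relatives in its family, and whether its probe binds their transcripts was not tested. Gstm3, a glutathione transferase, ran the other way, lower in PTFC than in HFD24, at -1.94 ± 0.43 (adjusted p = 0.0263) and higher in HFD24 than in ND, at 2.23 ± 0.43 (adjusted p = 0.0038). The Gstm3 call for PTFC was lost without the second PTFC array (0.0671), the third PTFC array (0.143) or any single HFD24 array (0.0656 to 0.069). Cyp2b9, a relative of Cyp2b10 on this list, passed in neither comparison and was not lower in HFD24 than in ND. Its difference was 0.80 ± 0.44 for HFD24 with ND (limma adjusted p = 0.223) and 0.71 ± 0.44 for PTFC with HFD24 (0.342). In all, 1 gene of this list was higher and 1 lower in PTFC than in HFD24 (median 0.17), and 2 were higher, with Ephx1, and 1 lower in HFD24 than in ND (median 0.30).

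Inflammatory signals are known to act on bile acid transporters. Of 7 measured genes of inflammation and the acute phase, Ccl2, a monocyte chemokine, and Lcn2, an acute phase protein, were higher in HFD24 than in ND and lower in PTFC than in HFD24, at -2.66 ± 0.36 and -2.39 ± 0.61 (limma adjusted p = 0.00788 and 0.0406). The Ccl2 call was lost without the third PTFC array (0.0532) and that of Lcn2 without 1 array in 8 of the 12 omissions, up to 0.194 without the third PTFC array. The other 5 genes of the list passed in neither comparison. The list median was 0.43 for HFD24 with ND and -0.63 for PTFC with HFD24.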

How the data were processed

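Per the labels' protocols, liver RNA was prepared by the Trizol method, and the amplified RNA carried Cy5 as the only dye. The authors deposited linear intensity for 26423 probes per array, 12 arrays in all. The sources used here do not say how background, scaling and probe choice were handled. Values below 0, 291 of 317076, were set to 0, a pseudocount of 1 was added, and the log2 values were quantile normalized. No detection flag was used, and the number of arrays limits the precision. Gene names came from the platform table, updated through the RefSeq gene table, and the brightest probe stood for each of 19084 genes.

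The model was limma's (version 3.58.1, under R 4.3.3), with 1 mean per group over the 12 arrays and a trended prior variance, two-sided, with Benjamini-Hochberg adjustment over all genes and a threshold of 0.05. The scripts were tested on simulated data. The 10 genes were named in every comparison, and up to 4 genes of each list by smallest p in HFD24 with ND and in PTFC with HFD24; the nearest genes were named for Cyp7a1 and Nr0b2. The 10 genes, the 17 lists and these rules were chosen with earlier results of these data known. Of 183 different list genes, 157 were measured. Alternatives were median centring, the authors' scale, a pseudocount of 32, no dimmest 25% of genes, the mean of a gene's probes, all probes fitted together, no trend, only the 2 groups compared, a replicate block, the intensity step as a covariate, and leaving out each array.

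Deviations from the group means of same-numbered arrays correlated at 0.105 to 0.147 in HFD16 with ND. In the other comparisons they correlated at -0.288 to 0.0385. The correlation was not computed for differently numbered arrays, so these values cannot show whether same-numbered arrays belong together. The block changed no call of the 10 genes in HFD16 with ND.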

Additional observations from a re-analysis of the deposited data

How the results depend on the processing

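None of the 11 differences of the 10 genes that passed changed sign under the 22 other settings, whereas 17 of the 39 that did not pass changed sign at least once. With the intensity step as a covariate, the count of the 10 genes past the test was 0 for HFD24, HFD16 and PTFC with ND, and 3 by the F test. Median centring left 0 for PTFC with HFD24. Leaving out 1 array gave 0 to 1 for PTFC with HFD24 and 1 to 2 for PTFC with ND. The replicate block moved the call of Nr0b2 in PTFC with ND (limma adjusted p = 0.0396, against 0.0656) and no other call of the 10 genes. Among the other genes named it ended those of Fgf15, Gpbar1 and Lcn2 in PTFC with HFD24 (0.0685, 0.0779 and 0.0614) and of Gpbar1 in HFD24 with ND (0.0551), and Slco2b1 passed in HFD24 with ND (0.0412). Over all genes it gave 337 calls for PTFC with HFD24, against 1145 without it. Median centring gave 1615 there, only the 2 groups 1745, and leaving out 1 array 11 to 1973. Leaving out 1 array gave 58 to 658 for PTFC with ND, against 445, and 1734 to 4939 for HFD24 with ND, against 3483. The step covariate left 382 for HFD24 with ND, 101 of 3462 for HFD16 with ND and 25 for PTFC with ND, and 1699 of 4088 by the F test.

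Differences that did not pass and changed sign follow. Median centring gave 0.011 for Slc10a1 and 0.13 for Abcb11 in HFD24 with ND and -0.19 for Nr0b2 in PTFC with HFD24. The mean of both Slc10a1 probes gave 0.016 in HFD24 with ND. The authors' scale gave -0.12 for Cyp27a1 and -0.017 for Il6 in HFD24 with ND, 0.13 for Cyp27a1, 0.059 for Cyp7b1, 0.15 for Nr1h4 and 0.040 for Apoc2 in PTFC with HFD24, and 0.0076 for Cyp27a1 in PTFC with ND. The step covariate gave 0.56 for Cyp7a1, 0.12 for Cyp8b1 and 0.34 for Abcb11 in HFD24 with ND, and 0.79 for Cyp8b1 and 0.0073 for Slco1a4 in PTFC with ND.

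Leaving out 1 array gave a range, in HFD24 with ND, of -1.31 to 0.39 for Cyp7a1, -0.14 to 0.15 for Cyp27a1 and -0.089 to 0.021 for Abcb11. In PTFC with HFD24 it gave -0.19 to 0.060 for Cyp27a1, -0.16 to 0.069 for Cyp7b1, -0.11 to 0.072 for Nr1h4, -0.22 to 0.46 for Nr0b2 and -0.24 to 0.44 for Abcc4. It gave -0.13 to 0.40 for Abcb11 and -0.0083 to 0.13 for Slc10a1 in HFD16 with ND, -0.43 to 0.10 for Abcb11 in HFD24 with HFD16, and -0.20 to 0.089 for Cyp27a1 and -0.0023 to 0.27 for Slc10a1 in PTFC with ND. The causes were not tested. On the authors' scale the median of all genes shifted by -0.225 in HFD24 with ND and by 0.242 in PTFC with HFD24. There, 1325 of all genes were higher and 1884 lower in HFD24 than in ND, against 1903 and 1580 after quantile normalization, and 1502 were higher and 158 lower in PTFC than in HFD24, against 564 and 581.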
